A study of Rattus norvegicus with 8 samples.

Results

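Genes that encode the components of elastic and oxytalan fibres were followed in the periodontal ligament (PDL), the connective tissue between tooth root and bone, of rats (Rattus norvegicus) at postnatal day 28 (P28) and postnatal day 18 (P18). The genes were chosen by name: the fibrillins Fbn1 and Fbn2, the microfibril-associated glycoproteins Mfap2 and Mfap5, elastin (Eln), and the fibulins Fbln1, Fbln2, Fbln5, Efemp1 and Efemp2, which makes 10 listed genes. Of these, 9 were among the 17337 genes of the deposited count table, and all 9 passed the filter on low counts. The expression of Fbln2 was not analysed here. The cervical region of the ligament was cut out by laser micro-dissection from 4 animals at P28 and 4 at P18. All animals had normal growth and no treatment per the labels, which give no strain, sex or genotype. Per the series' design text, the teeth come into occlusal contact between the ages sampled. RNA was sequenced from low-input libraries of total RNA, and each library was taken as 1 animal.

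Elastic fibres have a core of cross-linked elastin laid on a scaffold of microfibrils, which are bundles of fibrillin with associated glycoproteins. Oxytalan fibres are microfibril bundles with little or no elastin, and they are the type for which the periodontal ligament is known. Fibulins bind elastin, fibrillin and lysyl oxidases and help place the core on the scaffold, and fibrillin also holds latent TGF-beta through its binding proteins.

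Total counts per library ran from 5252693 to 17803006 at P28 and from 10863769 to 26645656 at P18. P28 replicate 4 was the shallowest library and stood apart: on log2 CPM it correlated with P28 replicates 1 to 3 at 0.75 to 0.766, where these correlated with each other at 0.813 to 0.827 (across genes, which are not replicates). Results are therefore given with and without it where it changes them. Of the ligament markers, Col1a1 lay at 64611 to 82845 CPM at P28 and 37290.4 to 68743 CPM at P18, and Postn (periostin) at 13232 to 32207 CPM at P28 and 14136 to 16127 CPM at P18. CPM are counts scaled to a common library size and between libraries with TMM factors. Aspn (asporin, also known as PLAP-1), another ligament marker, was near 0, with 0 counts at P28 and 4 at P18. Markers of other tissues varied widely between libraries, and some were called different between the ages by the edgeR test described below. The summed enamel organ markers ran from 5.62 to 638 CPM at P28 and from 15.1 to 4843 CPM at P18, and the epithelial markers from 42.2 to 5430.1 CPM at P28 and from 22.5 to 569 CPM at P18. Blood cell markers ran, for neutrophils, from 25 to 272 CPM at P28 and from 36.1 to 940 CPM at P18, and for erythroid cells from 586 to 4009.9 CPM at P28 and from 2368 to 7973 CPM at P18. Schwann cell markers summed to 67.6 to 201 CPM at P28 and 60.1 to 152 CPM at P18, and osteoblast and cementoblast markers to 5815 to 10358 CPM at P28 and 3872 to 5928 CPM at P18. Of 4 tested enamel organ markers 0 were called higher at P28 and 2, Ambn and Amtn, lower (edgeR adjusted p = 0.0204 and 0.0188). Of 8 tested osteoblast and cementoblast markers 1, Bglap, was called higher and 0 lower (edgeR adjusted p = 0.0264). Among all tested genes 0.516% were called higher and 0.42% lower. Ambn, Amtn and Bglap did not overlap between the ages. Leaving out 1 library, they were called in 6, 5 and 4 of 8 fits, in that order. The labels name no batch.

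No gene of the set passed the test over all genes. Of 9 tested, 0 were called by edgeR's quasi-likelihood test at a Benjamini-Hochberg adjusted p under 0.05, where 0.936% of the 10472 tested genes were called. The log2 fold change of P28 over P18 was above 0 in 4 genes and below 0 in 5, with a median of -0.02, against 0.01 over all genes tested. Fbln5 came closest to a call, at levels 4.58-fold lower at P28, and Mfap5 had the next lowest p. An unadjusted p under 0.05 was found for these genes alone, 2 of 9, where 14.5% of all tested genes had one. Fbln5 was 1 of the 9 genes (11.1%), and the only one, in which all P28 libraries lay on the same side of all P18 libraries. That was so for 10.4% of all genes tested, so the share in the set lay near that of all genes. With ligament captured as a whole, fewer cells of a type and less RNA per cell cannot be told apart.

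**Figure D1:**
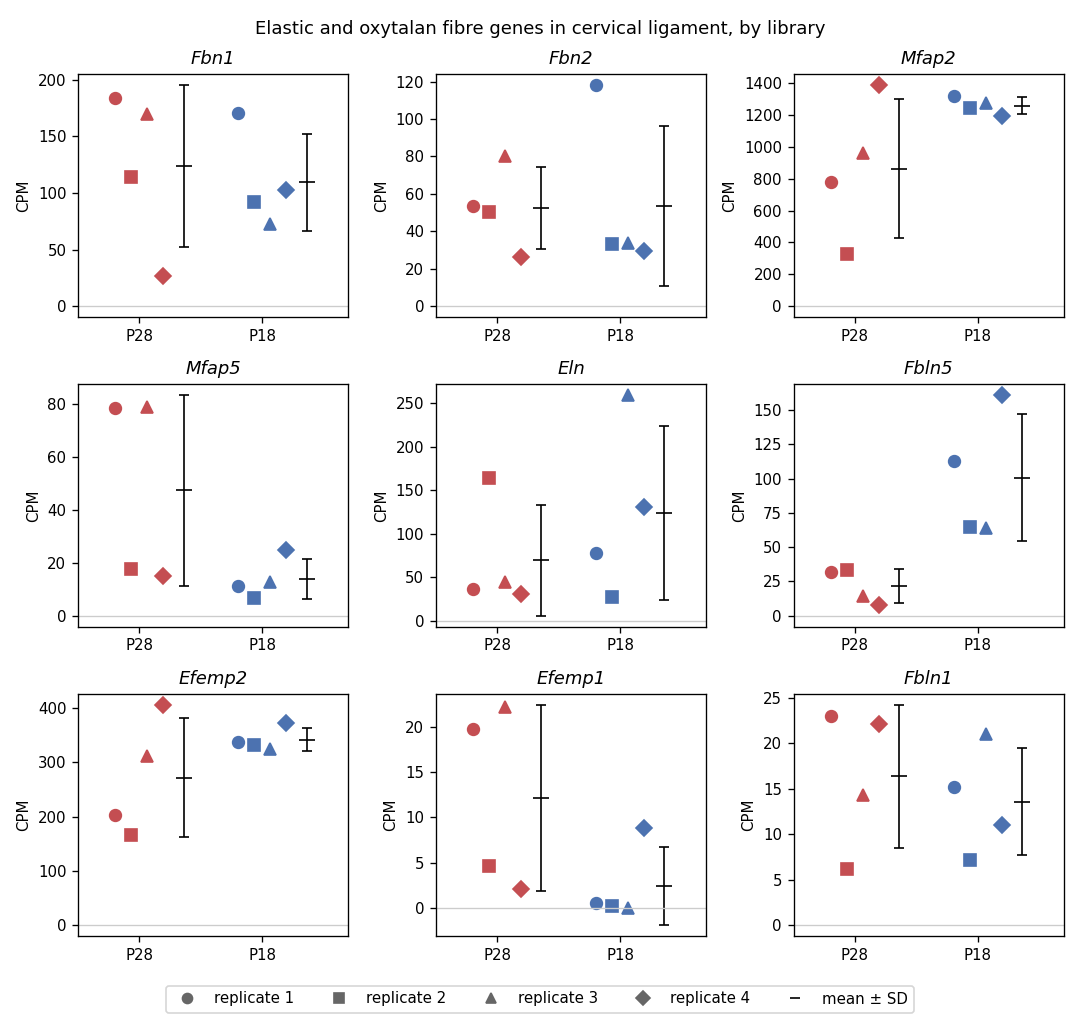
Level in CPM (y axes, linear, each panel its own scale) of the 9 measured genes in each library at P28 (red, left) and P18 (blue, right); symbols mark the replicate and black bars the mean ± SD of 4 libraries. The Fbln5 libraries of the ages do not overlap; Mfap2 and Efemp2 lie close together at P18 and apart at P28.

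The fibrillins form the backbone of the microfibril. Fbn1, the main fibrillin of adult tissue, had levels of 184, 114, 170.3 and 27.0 CPM at P28 (replicates 1 to 4, in that order here and in what follows) and 171, 92.3, 72.2 and 103 CPM at P18. The ages overlapped, and P28 replicate 4 was lower than every other library. P28 over P18 stood at 0.18 ± 0.47 on the log2 scale (SE; edgeR adjusted p = 0.903), and 0.51 without P28 replicate 4 (edgeR adjusted p = 0.426). Its sign was not stable, at -0.07 without P28 replicate 1 and -0.01 without P28 replicate 3.

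Fbn2, the fibrillin best known from developing tissue, lay at 53.7, 50.5, 80.1 and 26.4 CPM at P28 and at 118, 33.3, 33.7 and 29.2 CPM at P18. A single P18 library, replicate 1, held the highest level, and the other P18 libraries lay below P28 replicates 1 to 3. The log2 fold change was -0.02 ± 0.49 (edgeR adjusted p = 0.993) and 0.72 without P18 replicate 1 (edgeR adjusted p = 0.447). It was also above 0 without P28 replicate 4 (0.20) and with voom and quality weights (0.53).

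The count ratio of Fbn2 over Fbn1 within a library does not depend on the scaling between libraries. It was 0.292, 0.441, 0.47 and 0.977 at P28, against 0.689, 0.36, 0.467 and 0.284 at P18. The ranges overlapped, and the mean log2 ratio was -1.02 ± 0.72 at P28 and -1.23 ± 0.55 at P18 (SD, n = 4 each; exact permutation test, 2-sided, p = 0.629; adjusted over 5 ratios, 0.629). Without P28 replicate 4 the difference of P28 minus P18 was -0.12, against 0.21 with it. Ratios of counts are not corrected for transcript length, so they compare ages, not the amounts of the gene products.

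Mfap2 and Mfap5 encode the microfibril-associated glycoproteins MAGP-1 and MAGP-2, which bind fibrillin along the microfibril. Mfap2 lay at 778, 330.0, 959 and 1386 CPM at P28 and at 1321, 1244, 1275 and 1197 CPM at P18. The P18 libraries lay within a narrow band, and at P28 replicates 1, 2 and 3 lay below all of them and replicate 4 above. For Mfap2, P28 over P18 was -0.55 ± 0.33 on the log2 scale (SE; edgeR adjusted p = 0.487), and -0.87 without P28 replicate 4 (edgeR adjusted p = 0.160). Mfap5 lay at 78.5, 17.5, 78.8 and 15.0 CPM at P28 and at 11.2, 6.88, 12.9 and 24.7 CPM at P18. Replicates 1 and 3 at P28 were above every other library, and replicates 2 and 4 lay inside the P18 range. The log2 fold change was 1.77 ± 0.63 (edgeR adjusted p = 0.211), and it was 1.41 to 2.20 leaving out 1 library, with edgeR adjusted p from 0.0958 to 0.460.

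The promoters of this pair are shown because their genes lay on opposite sides of 0. Each line gives the 250 bases before the annotated start, 5′ to 3′ on the gene's strand, from RefSeq (GRCr8), and capitals mark matches to the motifs searched. Mfap2 lies at chr5:158597478-158597727 on the plus strand, and Mfap5 at chr4:157399669-157399918 on the plus strand.
Mfap2: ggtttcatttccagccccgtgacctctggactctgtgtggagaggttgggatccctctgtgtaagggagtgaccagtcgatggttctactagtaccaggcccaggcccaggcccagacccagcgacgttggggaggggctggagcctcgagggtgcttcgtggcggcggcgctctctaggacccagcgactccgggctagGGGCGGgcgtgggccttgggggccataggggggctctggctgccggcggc
Mfap5: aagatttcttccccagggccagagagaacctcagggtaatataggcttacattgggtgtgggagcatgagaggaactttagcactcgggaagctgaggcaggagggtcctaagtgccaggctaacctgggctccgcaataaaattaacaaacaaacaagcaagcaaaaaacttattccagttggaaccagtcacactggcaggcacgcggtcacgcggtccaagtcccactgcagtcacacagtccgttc
The motifs, searched on both strands, were the TATA box (TATAAA), the GC box (GGGCGG), an AP-1 site (TGANTCA), a TEAD site (GGAATG), a SMAD site (CAGACA) and an E-box (CAGCTG). The Mfap2 window held a GC box, found in 30.5% of the 33469 promoters of the table, and the Mfap5 window held none of the 6 motifs. GC content was 67.6% in the Mfap2 window and 51.6% in the Mfap5 window, where the median was 51.2% over all promoters.

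The MAGP genes were also compared within each library. The count ratio of Mfap5 over Mfap2 was 0.101, 0.0532, 0.0822 and 0.0108 at P28, against 0.00848, 0.00553, 0.0101 and 0.0206 at P18. Replicates 1, 2 and 3 at P28 exceeded all P18 libraries, while P28 replicate 4 lay within the P18 range. The mean log2 ratio was -4.42 ± 1.46 at P28 and -6.65 ± 0.79 at P18, a difference of 2.23 that did not pass (SD, n = 4 each; exact permutation test, 2-sided, p = 0.0571; adjusted over 5 ratios, 0.0952). Without P28 replicate 4 the difference was 2.93 (exact permutation p = 0.0286, the smallest possible), and leaving out any other library it did not pass (1.86 to 2.58, exact permutation p = 0.0571 to 0.114). The smallest p that 4 against 4 libraries allow is also 0.0286.

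Markers of bone-resorbing cells were highest in the P28 libraries with the highest Mfap5, replicates 1 and 3. The summed level of the 5 osteoclast markers in the table (of 7 listed) was 5506, 1024, 7813 and 2057 CPM in P28 replicates 1 to 4, and 1451 to 1707 CPM at P18. Of its defining markers, Acp5 had 1555, 147, 2632 and 235 CPM at P28, against 131, 67.9, 57.5 and 104 CPM at P18. Acp5 was called higher at P28 (edgeR adjusted p = 0.0494), and this call held in 2 of 8 fits leaving out 1 library each (edgeR adjusted p at most 0.173). Calcr had 1 count at P28 and 0 at P18. The summed level of the 5 macrophage markers was 399, 143, 527 and 347 CPM at P28 and 131 to 289 CPM at P18. The part of these cells in the Mfap5 levels was not tested.

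Eln encodes tropoelastin, the soluble unit of the elastic core. It lay at 37.1, 164, 45.1 and 31.6 CPM at P28 and at 78.5, 27.9, 259 and 130.4 CPM at P18. At P28 replicate 2 stood above the rest, and the P18 libraries spanned 9.28-fold between the lowest and the highest. The ages overlapped (log2 fold change -0.83 ± 0.64, SE; edgeR adjusted p = 0.602). Leaving out 1 library moved it from -1.70 (without P28 replicate 2, edgeR adjusted p = 0.180) to -0.20 (without P18 replicate 3, edgeR adjusted p = 0.943).

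Elastin is also made by the smooth muscle of vessel walls, so mural cell genes are set beside it. The summed level of the 7 arterial and smooth muscle markers was 748, 804, 677 and 748 CPM at P28 and 944, 819, 935 and 1222 CPM at P18. It was highest in P28 replicate 2, as was Eln, but at P18 it was highest in replicate 4 and Eln in replicate 3. The summed pericyte markers were highest in the same libraries as Eln, at 1023 CPM in P28 replicate 2 (441 to 648 in the other P28 libraries) and 886 and 686 CPM in P18 replicates 3 and 4 (546 and 652 in the other P18 libraries). This was not particular to pericyte markers. The summed Schwann cell markers were also highest in these libraries, at 201 CPM in P28 replicate 2 and 152 and 80.1 CPM in P18 replicates 3 and 4. So were the summed endothelial markers, at 1301, 931 and 937 CPM in the same order. The summed epithelial markers were 240.1, 5430.1, 1007 and 42.2 CPM at P28 and 569, 157, 213 and 22.5 CPM at P18, highest in P28 replicate 2 but lowest in P18 replicate 4, which had the second highest P18 level of Eln. The part of vessel, Schwann and epithelial cells in the Eln levels was not tested.

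The count ratio of Eln over Fbn1, elastic core against microfibril, was 0.202, 1.43, 0.265 and 1.17 at P28, and 0.458, 0.302, 3.59 and 1.27 at P18. It varied more within an age than between ages, with mean log2 ratios of -0.87 ± 1.45 at P28 and -0.17 ± 1.60 at P18 (SD, n = 4 each; exact permutation test, 2-sided, p = 0.486; adjusted over 5 ratios, 0.607). Leaving out 1 library, the difference of P28 minus P18 was -1.22 to -0.03.

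Fbln5 encodes fibulin-5, an integrin-binding protein that joins tropoelastin to the microfibril scaffold and without which mice form disorganised elastic fibres. Levels were 31.9, 33, 14.6 and 7.91 CPM in the P28 libraries, replicates 1 to 4, and 113, 64.4, 64.0 and 161 CPM in those of P18. Every P28 library was below every P18 library. The means were 21.8 ± 12.5 CPM at P28 and 101 ± 46.5 CPM at P18 (SD, n = 4 each), with P28 over P18 at -2.20 ± 0.48 on the log2 scale (SE; edgeR adjusted p = 0.0540). By p it ranked 114 of the 10472 genes tested, and 2.23% of these had a log2 fold change as low or lower.

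The Fbln5 difference kept its direction in all 15 alternatives, with log2 fold changes of -2.46 to -1.88 leaving out 1 library. It was called in 4 of the 15. These were the DESeq2 Wald test (DESeq2 adjusted p = 0.000494), which called 6.48% of its genes, the edgeR fit with no filter (edgeR adjusted p = 0.0344; 0.875% of genes), and the fits without P28 replicate 2 (-2.46, edgeR adjusted p = 0.0497; 1.27%) and without P28 replicate 4 (-1.93, edgeR adjusted p = 0.0499; 1.99%). With voom and quality weights, which called 2.93% of genes, with the replicate number as a block (0.248%) and in the other alternatives, the gene was not called (adjusted p up to 0.166).

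The Fbln5 promoter is shown because this gene came closest to a call. It lies at chr6:126742707-126742956 on the minus strand (RefSeq, GRCr8), and capitals mark motif matches as above.
Fbln5: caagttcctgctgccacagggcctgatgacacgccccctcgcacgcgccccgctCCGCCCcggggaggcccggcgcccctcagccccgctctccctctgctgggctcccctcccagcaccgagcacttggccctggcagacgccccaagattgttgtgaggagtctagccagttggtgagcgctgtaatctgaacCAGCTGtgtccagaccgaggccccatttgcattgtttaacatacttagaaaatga
Its window held a GC box and an E-box; an E-box was found in 12.0% of all promoters. Of the 8 listed genes with a promoter in the table, Fbln2 among them, 5 held a GC box (Fbln2, Fbln5, Efemp1, Efemp2 and Mfap2), 2 an E-box (Fbln5 and Efemp1), 1 each an AP-1 site (Efemp1), a TEAD site (Fbn2) and a SMAD site (Fbn1), and 0 a TATA box, which 12.9% of all promoters held. The matches are descriptions of letters and were not tested as sites.

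Smooth muscle markers are set beside Fbln5, which vessel walls also express. The summed level of the 7 markers, given per library beside Eln, did not overlap between the ages and was lower at P28. Of the 6 tested, 0 were called by edgeR. An unadjusted p under 0.05 was found for 2, Tagln and Acta2, against 14.5% of all tested genes. The log2 fold change was above 0 in 2 and below 0 in 4, with a median of -0.37. Tagln (transgelin) had P28 over P18 at -0.60 ± 0.20 on the log2 scale and Acta2 (smooth muscle actin) at -2.07 ± 0.56, both uncalled (edgeR adjusted p = 0.175 and 0.105). The other tested markers, Myh11, Mylk, Smtn and Cnn1, were at 0.53, 0.02, -0.15 and -1.02, all with overlapping ages. The summed endothelial markers overlapped, at 649 to 1301 CPM at P28 and 639 to 937 CPM at P18. The ligament fibroblast markers summed to 131168 to 188101 CPM at P28 and 84083 to 128806 CPM at P18, higher at P28 with no overlap. That sum was mostly Col1a1, Col3a1 and Postn. Each of these overlapped between the ages and was uncalled (edgeR adjusted p = 0.358, 0.171 and 0.433). Of the 7 tested ligament fibroblast markers 2, Fmod and S100a4, were called higher and 1, Tnmd, lower. Of all tested genes 0.516% were called higher and 0.42% lower. Leaving out 1 library, Fmod, S100a4 and Tnmd were called in 4, 3 and 8 of 8 fits, in that order. The part of each cell type in the Fbln5 difference was not tested.

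**Figure D2:**
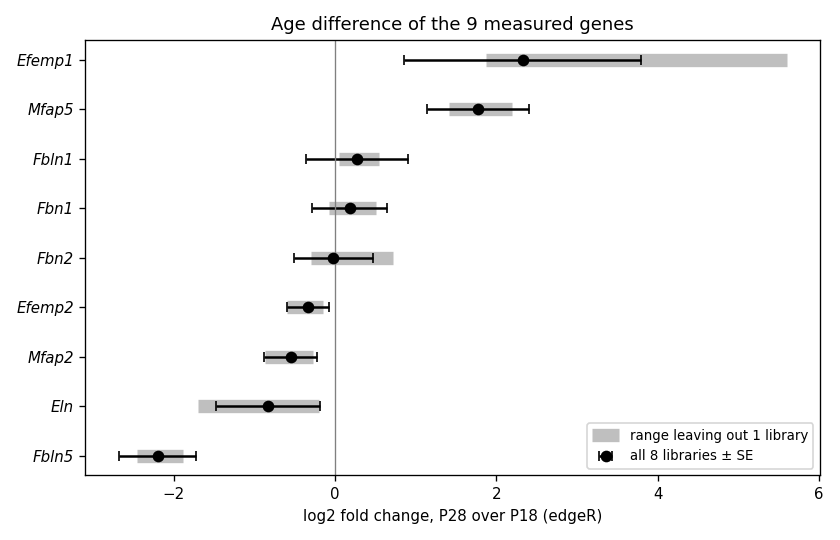
Log2 fold change of P28 over P18 (x axis) for the 9 measured genes, with the standard error as whiskers (black) and the range over the 8 fits that left out 1 library (grey). Fbln5 lies farthest below 0, at -2.20; the grey range of Fbn1 and of Fbn2 spans 0, and that of Efemp1 reaches 5.60.

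Efemp2 encodes fibulin-4, which brings lysyl oxidase to tropoelastin and without which mice lack intact elastic fibres. It lay at 203, 166, 312 and 406 CPM at P28 and at 338, 332, 325 and 372 CPM at P18. As with Mfap2, replicates 1, 2 and 3 at P28 lay below all P18 libraries and replicate 4 above them. P28 over P18 was -0.33 ± 0.26 on the log2 scale (SE; edgeR adjusted p = 0.613), and -0.59 without P28 replicate 4 (edgeR adjusted p = 0.206).

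Efemp1 encodes fibulin-3, a relative of fibulin-4 found in basement membranes and elastic tissue. It had few reads at P18 outside 1 library, with 335, 44, 272 and 10 counts in P28 replicates 1 to 4, and 6, 5, 1 and 174 counts in P18 replicates 1 to 4. In CPM this was 19.7, 4.60, 22.2 and 2.08 at P28, and 0.542, 0.180, 0.0427 and 8.86 at P18. The single count of P18 replicate 3 has an exact (Clopper-Pearson) 95% interval of 0.00108 to 0.238 CPM, which covers counting error only. Replicates 1 and 3 at P28 were above every P18 library, as for Mfap5, and P18 replicate 4 lay above P28 replicates 2 and 4. Its log2 fold change came to 2.33 ± 1.47 (SE; edgeR adjusted p = 0.511), and 5.60 without P18 replicate 4, still uncalled (edgeR adjusted p = 0.184).

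The count ratio of Efemp1 over Efemp2 was 0.0971, 0.0276, 0.0711 and 0.00512 at P28, against 0.00161, 0.000542, 0.000131 and 0.0238 at P18. Mean log2 ratios were -4.97 ± 1.88 at P28 and -9.39 ± 2.96 at P18, a difference of 4.43 (SD, n = 4 each; exact permutation test, 2-sided, p = 0.0571; adjusted over 5 ratios, 0.0952). The ages overlapped through P18 replicate 4 and P28 replicate 4.

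Fbln1 encodes fibulin-1, which binds elastin and fibronectin. It lay at 23.0, 6.16, 14.3 and 22.1 CPM at P28 and at 15.2, 7.20, 21 and 11.0 CPM at P18. The ages overlapped (log2 fold change 0.27 ± 0.63, SE; edgeR adjusted p = 0.893). Set against it, the count ratio of Fbln5 over Fbln1 was 1.39, 5.36, 1.02 and 0.358 at P28, and 7.47, 8.94, 3.05 and 14.6 at P18. P28 replicate 2 was the library that overlapped the P18 range. Mean log2 ratios were 0.36 ± 1.60 at P28 and 2.88 ± 0.94 at P18, a difference of -2.52 (SD, n = 4 each; exact permutation test, 2-sided, p = 0.0571; adjusted over 5 ratios, 0.0952), and -1.91 without P28 replicate 4 (exact permutation p = 0.0857). Of the 8 values that left out 1 library, the one without P28 replicate 2, the overlapping library, passed (-3.20, exact permutation p = 0.0286), and the other 7 did not (exact permutation p = 0.0571 to 0.0857).

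**Figure D3:**
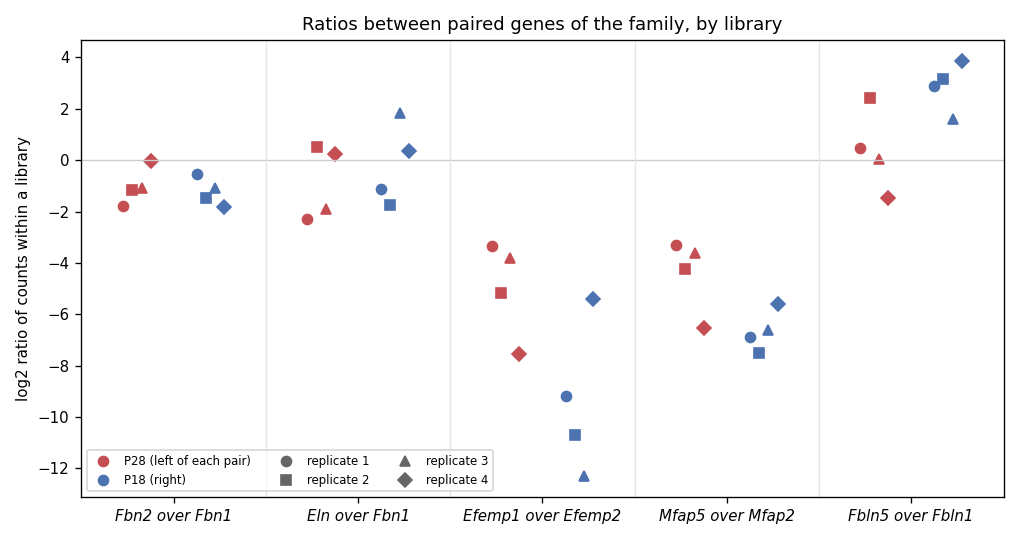
Log2 ratio of the counts of 2 genes within each library (y axis), for 5 gene pairs (x axis), at P28 (red, left in each pair) and P18 (blue, right), with symbols marking the replicate. For Mfap5 over Mfap2, 3 of the 4 P28 libraries lie above every P18 library; P28 replicate 4 lies at -6.52, within the P18 range.

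The libraries did not rank alike across the genes. Among P28 libraries, replicate 4 was the lowest in 6 of the 9 genes and the highest in 2, Mfap2 and Efemp2. Among P18 libraries, replicate 3 was lowest in 4 genes, replicate 4 highest in 4 and replicate 1 highest in 3. The spread between animals was large at both ages: the coefficient of variation had a median over the 9 genes of 57.4% at P28 and 46.2% at P18. For Mfap2 it was 50.7% at P28 and 4.17% at P18, and for Efemp2 40.1% at P28 and 6.09% at P18. Without P28 replicate 4 the P28 values were 47.0% for Mfap2 and 33.4% for Efemp2, and the median over the 9 genes was 47% at P28. A larger spread at P28 was found for 7 of the 9 genes (77.8%), and for 71.8% of the 1917 tested genes with a mean of at least 100 CPM. That limit was not applied to the 9 genes. Fbn2, Mfap5, Fbln1 and Efemp1 had means below it at both ages, and Eln and Fbln5 at P28. Without P28 replicate 4, an alternative chosen after the data were seen, a larger spread at P28 was found for 5 of the 9 genes (55.6%) and for 59.4% of the 1917 tested genes. Fbn1 and Fbln5 then had the smaller spread at P28, at 23.5% and 39%, against 39.3% and 46.2% at P18.

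Other genes of elastic-fibre assembly, linkage and turnover were taken from 5 lists. Tested were 9 of 19 microfibril-associated and assembly genes, 4 of 4 latent TGF-beta binding, 6 of 6 cross-linking, 9 of 12 elastase and 6 of 10 receptor genes. The rest were not in the count table or did not pass the filter on low counts. Of 34 tested, 0 were called higher and 1 lower, Furin, against 0.516% and 0.42% of all tested genes. The log2 fold change was above 0 in 19 and below 0 in 15, with a median of 0.09, against 0.01 over all genes. The ages did not overlap in 3 of them (8.82%), Furin, Ltbp1 and Ltbp2, where that was so for 10.4% of all genes.

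Furin encodes the protease that trims profibrillin before it assembles, among many other substrates. Its level fell to 117, 154, 134 and 109 CPM in P28 replicates 1 to 4, against 291, 304, 225 and 213 CPM in P18 replicates 1 to 4. All P28 libraries lay below all P18 libraries. This was -1.0 ± 0.20 on the log2 scale (SE; edgeR adjusted p = 0.0426). Leaving out 1 library, it stayed called in 1 of 8 fits, the one without P28 replicate 2 (edgeR adjusted p = 0.0366). The other 7 fits, without each P18 library or without P28 replicate 1, 3 or 4, did not call it (edgeR adjusted p up to 0.160), at log2 fold changes of -1.09 to -0.93.

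Of the 9 tested genes of the list that holds Furin, microfibril-associated and assembly genes, 0 were called higher and 1 lower, with a median of 0.28. Adamtsl4, a microfibril-binding protein, had a log2 fold change of 1.23 ± 0.48, and Fkbp10, a chaperone of collagen and tropoelastin, one of -0.32 ± 0.17 (edgeR adjusted p = 0.254 and 0.416). Mfap4, another microfibril-associated gene, had 0 counts at P28 and 1 at P18, and Emilin3 had 0 counts in every library, where 0 counts allow up to 0.624 CPM in the shallowest library. Emilin1, an elastic-fibre glycoprotein, lay at 340.2 ± 98.9 CPM at P28 and 409 ± 10.4 CPM at P18 (SD, n = 4 each; log2 fold change -0.27 ± 0.22).

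Some members of the family of latent TGF-beta binding proteins attach latent growth factor to fibrillin. Of 4 tested, 0 were called by edgeR in either direction, and 2 had an unadjusted p under 0.05, against 14.5% of all tested genes. Ltbp1 lay at 168, 127, 186 and 106 CPM at P28 and at 93.5, 51.5, 21.8 and 38.6 CPM at P18. Ltbp2, which competes with Ltbp1 for fibrillin and binds fibulin-5, lay at 32.8, 50.2, 51.5 and 45.6 CPM at P28 and at 2.35, 10.2, 16.6 and 11.5 CPM at P18. In both genes every P28 library was above every P18 library. P28 over P18 stood at log2 values of 1.52 ± 0.39 for Ltbp1 and 2.15 ± 0.55 for Ltbp2 (edgeR adjusted p = 0.0928 each). Leaving out 1 library, Ltbp1 was called once, without P18 replicate 1 (1.98, edgeR adjusted p = 0.0412), and Ltbp2 in 0 of 8 fits. The DESeq2 Wald test, which called 6.48% of its genes, called both (DESeq2 adjusted p = 0.00817 and 0.00314). Voom with quality weights, which called 2.93% of genes, called Ltbp1 (1.9, voom adjusted p = 0.0134). It did not call Ltbp2 (2.02, voom adjusted p = 0.05 after rounding). Ltbp3 and Ltbp4 had log2 fold changes of -0.04 ± 0.35 and 0.12 ± 0.23. Whether the members of this family differ from each other in their response to age was not tested.

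The lysyl oxidases cross-link elastin and collagen. Of 6 tested cross-linking genes 0 were called by edgeR and 0 had an unadjusted p under 0.05, with a median log2 fold change of -0.23. Lox lay at 237 ± 122 CPM at P28 and 352 ± 86.7 CPM at P18, and Loxl1, the oxidase that fibulin-5 binds, at 223 ± 99.2 CPM at P28 and 327 ± 11.1 CPM at P18 (SD, n = 4 each). On the log2 scale Lox differed by -0.57 ± 0.31 and Loxl1 by -0.55 ± 0.30 (edgeR adjusted p = 0.439 and 0.434).

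Of 9 tested elastases and related proteases 0 were called by edgeR and 3 had an unadjusted p under 0.05, against 14.5% of all tested genes. The log2 fold change was above 0 in 8, with a median of 0.52. Mmp9 (gelatinase B) lay at 333, 14.8, 449 and 18.7 CPM at P28 and at 1.27, 9.76, 1.79 and 25.7 CPM at P18 (log2 fold change 4.4 ± 1.20, edgeR adjusted p = 0.107). It was high in P28 replicates 1 and 3, like Mfap5 and the summed osteoclast markers, of which Mmp9 is itself a member. Ctsk (cathepsin K), also an osteoclast marker, and Mmp14 differed by 0.93 ± 0.39 and 0.78 ± 0.34 on the log2 scale (P28 over P18 ± SE, edgeR adjusted p = 0.3 and 0.308). Of 6 tested receptor genes 0 were called by edgeR, 0 had an unadjusted p under 0.05 and all 6 had a log2 fold change below 0, with a median of -0.41. Itgb5, an integrin subunit that binds vitronectin, was at -0.52 ± 0.27, Itgb3 at -1.51 ± 0.91 and Itga5 at -0.45 ± 0.29 (edgeR adjusted p = 0.403, 0.491 and 0.523).

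**Figure D4:**
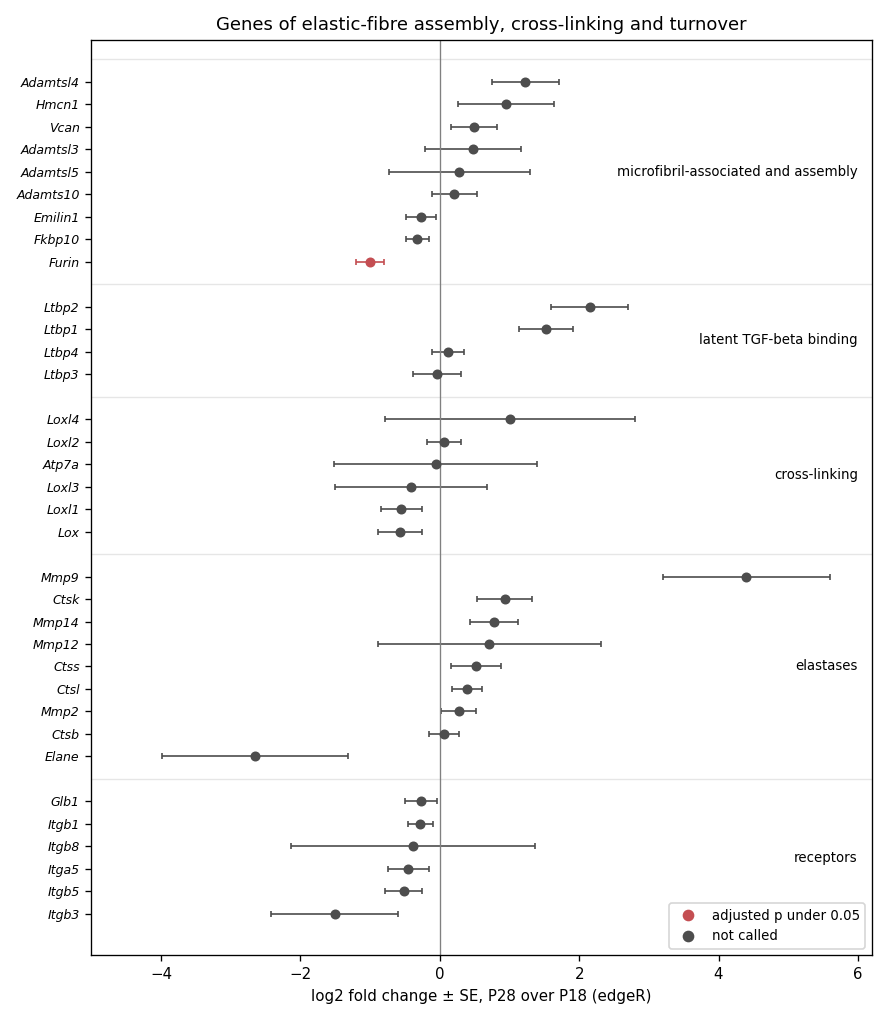
Log2 fold change of P28 over P18 ± SE (x axis) for the 34 tested genes of 5 lists (y axis, grouped by list), with genes at an adjusted p under 0.05 in red. Furin, at -1.0, is the only red point; Ltbp2 and Ltbp1 lie at 2.15 and 1.52, and the 6 receptor genes lie below 0.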

How the data were processed

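RNA-seq libraries of laser-captured cervical PDL (SMARTer Ultra Low input kit, per the labels' protocols) were analysed from the raw counts per gene symbol that the authors deposited. STAR 2.5.3a, HTSeq 0.9.1 and edgeR 3.16.5 are named with build rn6 in the submitters' processing notes; what each did, the annotation and the strand setting are not given in the sources here. That table holds 40 further sample columns, which were not used. Samples were grouped by the labelled age (P28, n = 4; P18, n = 4); the p-values measure the spread between these animals.

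Counts were fitted with edgeR 4.0.16 under R 4.3.3 (the quasi-likelihood functions glmQLFit and glmQLFTest, TMM, age as the only term, filterByExpr with a minimum count of 10), p adjusted by Benjamini-Hochberg over 10472 genes and called under 0.05. Log2 fold changes are P28 over P18; SE is the fold change over the root of F. Total counts ran from 5252693 to 26645656, and 3 counts equal 0.624 CPM in the shallowest library and 0.108 CPM in the deepest; intervals and limits cover counting error only. On simulated counts (3 draws, 10201 genes), changes were planted only in genes with a mean of at least 10 CPM. Of these, 11.3% of 2-fold and 63% of 4-fold changes were called, and genes below that mean were not covered. In each library, log2 count ratios (0.5 added) were compared by exact permutation.

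Other settings tried were upper-quartile scaling, DESeq2 size factors, the Wald test of DESeq2 1.42.0, limma 3.58.1 voom with quality weights, other filters, a replicate block and leaving out each library. The genes and lists were chosen with earlier results of these data known. All members were named, with up to 3 genes of lowest p per pathway list and every called pathway gene. Of the marker genes, only those beside a result or in the check of the libraries are named. Ltbp3, Ltbp4, Mfap4, Emilin1, Emilin3, Aspn, Calcr, Col3a1, Ambn, Amtn and Bglap were added after their values were seen. Enrichment tests were not run. Promoters came from RefSeq (GRCr8), a build other than that of the counts, so gene coordinates are given for them alone.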

Additional observations from a re-analysis of the deposited data

Results flagged for a closer look

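In 3 of 28 groups of 4 libraries, 1 library lay far from the other 3 by Dixon's test. For independent groups of normal values, chance alone flags about 1 group in 20, or 1.4 of 28. The 3 flags are on CPM, which need not be normal, and the groups share libraries, so 1.4 is a rough guide only. Eln in P28 replicate 2 lay at 164 CPM, against 31.6 to 45.1 CPM in the other P28 libraries. Fbn2 in P18 replicate 1 lay at 118 CPM, against 29.2 to 33.7 CPM in the other P18 libraries. Efemp1 in P18 replicate 4 lay at 8.86 CPM, against 0.0427 to 0.542 CPM in the other P18 libraries.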

How the results depend on the processing

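The number of all genes called was 98, and 730 with the DESeq2 Wald test, 307 with voom and quality weights, 26 with the replicate block, and 9 to 215 leaving out 1 library. The number of the 9 genes called was 0, and 1 (Fbln5) with the Wald test, with no filter and at most 1 (0 to 1) leaving out 1 library. Of the pathway genes, 1 was called, and 4 with the Wald test, 2 with voom, 0 with the replicate block and 0 to 1 leaving out 1 library. For single genes, 123 of 135 recomputed log2 fold changes kept direction and call; 4 became calls, all of Fbln5, and 8 changed sign, all of Fbn1 or Fbn2. Fbn2 had 0.53 with voom, 0.15 with the block and -0.30 to 0.72 leaving out 1 library; Fbn1 had -0.02 with the block and -0.07 to 0.51 leaving out 1 library. The differences of log2 ratios leaving out 1 library were -0.12 to 0.46 (Fbn2 over Fbn1), -1.22 to -0.03 (Eln over Fbn1), 3.45 to 5.76 (Efemp1 over Efemp2), 1.86 to 2.93 (Mfap5 over Mfap2) and -3.20 to -1.91 (Fbln5 over Fbln1). Same-numbered libraries did not deviate together (r of -0.0196 to 0.00189 across genes), so the replicate numbers were taken as numbers only; with them as a replicate block, the Fbln5 log2 fold change was -2.24 (edgeR adjusted p = 0.124) and the ratio differences were 0.21, -0.70, 4.43, 2.23 and -2.52 in the same order. Scaling alternatives moved the median log2 fold change of all genes to 0.013 and -0.022, where TMM gave 0.007. The causes were not tested. Low counts limit Efemp1 most, with 1 to 6 counts in 3 P18 libraries, among them the deepest library, P18 replicate 2 (5 counts).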
